A study of Mus musculus with 20 samples.

Results

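The prostanoid synthesis and breakdown enzymes described here are encoded by Ptgs1, Ptgs2, Ptgis, Tbxas1, Ptges, Ptges2, Ptges3, Ptgds and Hpgd, 9 of the 47729 genes in a table of RNA sequencing values from whole mouse adrenal glands. They were chosen by gene symbol, with earlier results of these libraries known, among them the low Ptgis of females without Bmal1. The genotype comparison in females, and its difference from the one in males, are therefore given as a description with no p-value for these genes. The comparisons by sex use the same female libraries, so their p-values and calls for Ptgis are not independent of that knowledge. The study asked what inactivation of the clock gene Bmal1 changes in the adrenals of each sex. Every animal carried the label SCC::Cre, a Cre recombinase named for the side-chain cleavage enzyme of steroid-producing cells, so that the controls carried it too. The 5 control females (SCC::Cre_CTRL) were aged 1.5 to 3.4 months and the 5 Bmal1 KO females (SCC::Cre_BMAL1 KO) 2.4 to 3.4 months. The 6 control males were aged 2.9 to 4.7 months and the 4 Bmal1 KO males 2.9 to 3.7 months. Such a driver acts in the steroid-producing cells of the cortex, while the gland as sequenced also holds medulla, vessels, capsule and blood cells. Ages differ within every group, but each group also holds libraries of the same age, and no label says that these came from separate animals. The p-values therefore measure the spread among the samples only, and that spread may be technical in part.

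Prostanoids are short-lived lipid signals made from arachidonic acid, which phospholipases release from membranes. The cyclooxygenases Ptgs1 and Ptgs2 turn it into prostaglandin H2, and terminal enzymes turn that into prostacyclin (Ptgis), thromboxane (Tbxas1), prostaglandin E2 (Ptges, Ptges2, Ptges3) or prostaglandin D2 (Ptgds). Hpgd oxidises prostaglandins and so starts their inactivation. In the adrenal, prostaglandins are known as local regulators of blood flow and steroid release. Values below are normalised read counts, that is, reads divided by 1 scaling factor per library. Differences are on the log2(value + 1) scale with their standard error (SE), and a gene was called at an adjusted p under 0.05 over the 26612 genes tested with limma, which include all 9 enzymes.

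Reads per library ranged from 13421985 to 26742820. The 7 cortex markers summed to at least 718875 normalised reads in every library, and the 5 kidney markers to at most 10.1, with Umod and Slc34a1 at 0 throughout. Arntl, the symbol of Bmal1, did not fall with the Bmal1 KO label, with 618 ± 147 (SD, n = 5) against 905 ± 71.8 (n = 5) in females and 663 ± 238 (n = 6) against 923 ± 69.8 (n = 4) in males. A sum of reads over a whole gene checks nothing about exons removed from it, and directions by genotype rest on the labels. The clock repressor Cry1, which BMAL1 loss is known to alter, did not overlap between genotypes, with 207 to 237 against 1597 to 2137 in females and 122 to 213 against 1140 to 1423 in males. In whole tissue, fewer cells of a type and less RNA per cell cannot be told apart.

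Of the promoters in the RefSeq table (GRCm38.p6), 8 of the 9 enzymes matched by symbol, and Ptgis did not. The windows hold 250 bases before and 50 after each gene's start, and were searched on both strands for motifs tied to the clock and the adrenal cortex. The E-box CACGTG, the element that BMAL1 and CLOCK bind, was found in Ptges2 and, within the first 50 bases after the start, in Ptgs2, against 7.15% of all 32851 windows. A D-box (TTACGTAA or TTATGTAA), the element of DBP, was found in Ptgds alone of the 8, against 1.06% of all windows. The E-box variant CACGTT, held by 4.68% of windows, the ROR and REV-ERB element (0.219%), the SF-1 site CAAGGTCA (1.56%) and the cAMP response element TGACGTCA (1.79%) were in 0 of the 8. The matches did not overlap one another. A match is a description of letters and no evidence of binding. The 2 windows with a match before the start are printed below over their 250 upstream bases, 5′ to 3′ on the strand of the gene and with the motif in capitals, because Ptges2 holds an E-box without a difference by genotype and Ptgds was among the enzymes that differed by sex. The Ptges2 stretch lies on the plus strand at chr2:32395640-32395889 and its E-box begins 77 bases before the start. The Ptgds stretch lies on the minus strand at chr2:25469750-25469999, and its D-box, TTATGTAA read on the other strand, begins 141 bases before the RefSeq start. In GENCODE M21 Ptgds spans chr2:25466709-25470046, so this stretch lies inside the gene as annotated there. The windows of Ptges and Tbxas1 also lie inside their GENCODE spans.
Ptges2: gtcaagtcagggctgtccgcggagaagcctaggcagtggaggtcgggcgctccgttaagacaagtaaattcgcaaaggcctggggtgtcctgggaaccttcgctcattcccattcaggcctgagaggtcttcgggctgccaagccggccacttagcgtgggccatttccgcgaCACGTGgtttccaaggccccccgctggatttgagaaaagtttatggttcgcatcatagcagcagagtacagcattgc
Ptgds: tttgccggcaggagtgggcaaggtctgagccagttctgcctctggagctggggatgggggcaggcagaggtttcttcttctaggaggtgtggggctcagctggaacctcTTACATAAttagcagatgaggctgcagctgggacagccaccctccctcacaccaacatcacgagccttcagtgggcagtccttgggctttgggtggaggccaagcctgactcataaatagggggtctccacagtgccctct

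Per kilobase of exon, Ptges3 and Ptgis stood far above the other 7 enzymes in control glands. In control females the mean was 1221 ± 66.2 (SD, n = 5) normalised reads per kilobase for Ptges3 and 844 ± 290 for Ptgis. Ptges2 followed at 168 ± 22.2, and then came Hpgd (110), Ptges (93.0), Ptgs2 (61.5) and Ptgs1 (55.4), with SD ranges that overlapped from each to the next. In control males the first 2 changed places, with Ptgis at 1599 ± 412 (n = 6) and Ptges3 at 871 ± 49.7. In Bmal1 KO females Ptgis, at 223 ± 45.9, had an SD range that overlapped that of Ptges2, at 167 ± 27.9, while Ptges3 stood at 1329 ± 122. In Bmal1 KO males Ptgis stood at 439 ± 276 (n = 4), with an SD range that overlapped that of Hpgd at 160 ± 39.6. Ptgds was last or next to last in every group, between 10.3 and 33.7. Its neighbour in that order, Tbxas1 at 18.5 to 23.7, has 9094 bases of annotated exon, and by the length of its principal transcript it stood at 84.6 to 108, beside Ptgs1 and Ptges.

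**Figure D1:**
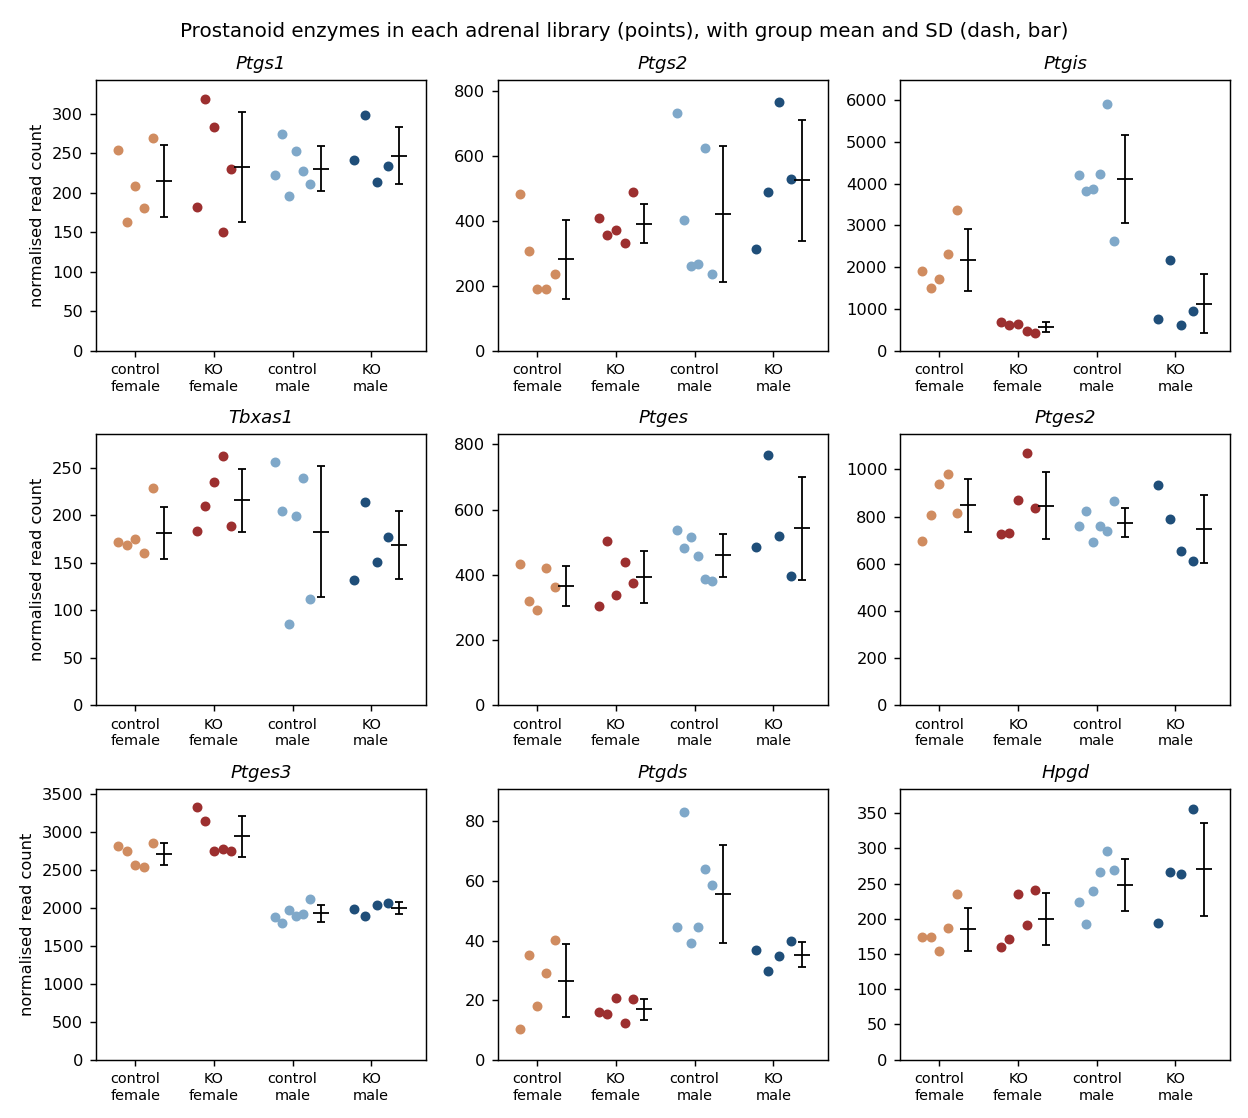
Normalised read counts of the 9 enzymes in each library, by genotype and sex, on axes that start at 0. Each point is 1 library, the dash gives the group mean and the bar its SD. Ptgis separates the genotypes in both sexes, Ptges3 separates the sexes in both genotypes, and the 8 enzymes other than Ptgis overlap between genotypes.

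The cyclooxygenases, the gate of the pathway, overlapped between genotypes. Ptgs1 (chr2:36230426-36252272, plus strand, GRCm38), the constitutive form, ranged from 150 to 318 normalised reads over all 20 libraries, and both of these extremes were Bmal1 KO females. Its log2 difference between Bmal1 KO and control was 0.08 ± 0.18 (SE) in females and 0.10 ± 0.18 in males (limma adjusted p = 0.92). Ptgs2 (chr1:150100031-150108227, plus strand), the inducible form, was more variable. Among females, the 5 controls stood at 483, 308, 189, 192 and 238, and the 5 animals without Bmal1 at 409, 357, 372, 333 and 489. Of the controls, 4 lay below every Bmal1 KO female and 1 lay next to the highest of them, and the difference was 0.56 ± 0.31. The 6 control males read between 238 and 733 (median 335), while the 4 Bmal1 KO males stood at 315, 490, 766 and 531. The difference in males was 0.39 ± 0.31 (adjusted p = 0.73), and control males spread over a wider range than control females.

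Ptgis (chr2:167191805-167240604, minus strand), the prostacyclin synthase, was the enzyme with the largest difference by genotype in both sexes. Control females 1 to 5 had 1912, 1495, 1723, 2319 and 3380 normalised reads, while Bmal1 KO females 1 to 5 had 697, 625, 648, 469 and 428. The groups did not overlap, and the mean of controls, 2166 ± 743 (SD, n = 5), was 3.78-fold that of Bmal1 KO, 573 ± 118 (n = 5). The log2 difference was -1.88 ± 0.27 (SE). Of all genes 1.44% were lower in Bmal1 KO females without overlap, and nothing is read from that share, since these values were known when the enzymes were chosen. Over the 32 other ways of fitting, which were other tools, filters and scalings and libraries left out, it lay between -2.00 and -1.59. The value nearest 0 was found without the 2 control females aged 1.5 months, the youngest animals, which held the 2 highest counts of their group. Without them the 3 older control females averaged 1710 ± 209, still above every Bmal1 KO female.

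In males Ptgis fell too. Control males 1 to 6 had 4198, 3821, 3864, 4227, 5904 and 2621, while Bmal1 KO males 1 to 4 had 752, 2170, 623 and 964. The groups did not overlap, but Bmal1 KO male 2 lay close to the lowest control, far above the other 3. The means were 4106 ± 1058 (SD, n = 6) and 1127 ± 709 (n = 4), a ratio of 3.64. The log2 difference was -2.00 ± 0.28 (SE, limma adjusted p = 0.000345), and all 4 Bmal1 KO males lay below all 6 controls. Ptgis was the 1 enzyme of 9 called in males, against 1.33% of all genes called and 0.567% called lower, and 1 of 9 lower without overlap, against 1.49%. It stayed called under all 32 other fits (adjusted p from 7.06e-08 to 0.00852). The enzymes were chosen with earlier results of these libraries known, so this p-value and these calls may not be independent of that knowledge. Without Bmal1 KO male 2 the mean of Bmal1 KO males was 780 ± 172 (n = 3) and the difference -2.38. Bmal1 KO male 2 had the highest Cry1 of the 4 Bmal1 KO males, at 1423 against 1140 to 1396. It also had their lowest count of the clock gene Nr1d1, at 243 against 266 to 450. For markers of cell types it lay at an extreme, with the lowest cortex sum of all 20 libraries (718875), the highest endothelial sum (20715) and the highest sum of capsule and fibroblast markers (13857). Its sum of mural and smooth muscle markers, 6161, was the highest of the 4 Bmal1 KO males, and control male 1 had 6486. Libraries with low Ptgis came near these sums, with an endothelial sum of 19930 in Bmal1 KO male 3 and a capsule and fibroblast sum of 12797 in Bmal1 KO male 4. The part of these cells in the Ptgis count of Bmal1 KO male 2 was not tested. The difference between the effects in females and in males was 0.12 ± 0.39 for Ptgis, again a description with no p-value given.

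**Figure D2:**
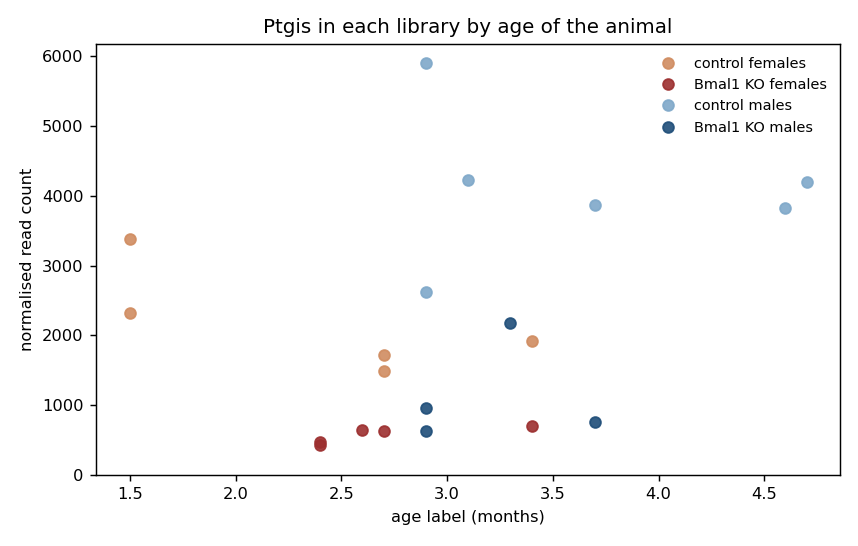
Normalised read count of Ptgis in each of the 20 libraries against the age label of the animal in months, coloured by group. The 2 control females aged 1.5 months lie above the older ones, and every Bmal1 KO library lies below every control library of the same sex.

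The mean sums of cortex markers, like Ptgis, were lower in Bmal1 KO. The mean sum of the 7 general markers was 1333060 in females with Bmal1 and 1158070 without it, and 992103 and 860670 in males, with ranges that overlapped in both sexes. Of these 7, limma called Star and Cyp11a1, which encode the first steps of steroid synthesis, lower in Bmal1 KO males, by -0.69 and -0.71 (adjusted p = 0.0238 and 0.0321). In females limma and edgeR called 0 of the 7 by genotype, and DESeq2 called Star lower. By sex, limma called 5 of the 7 higher and 1 lower in control females, and 4 higher and 0 lower in Bmal1 KO females, while Ptgis was lower in females. The summed count of 6 zona glomerulosa markers was 55796 to 65559 in females with Bmal1 against 37480 to 42923 without it, and 40766 to 58238 against 32372 to 39119 in males. Of these 6, Shh, Kcnk3 and Wnt4 were called lower in females, and Shh and Kcnk3 in males, where edgeR and DESeq2 called Wnt4 lower too. By sex the mean of this sum in controls was higher in females, 60437 against 46613, while Ptgis was lower in them. Shh went with Ptgis by sex, being lower in females by -1.64 in controls and -1.90 in Bmal1 KO (adjusted p = 0.000158 and 0.000122). Dab2 and Wnt4 of the same 6 went the other way and were called higher in females. They differed by 0.75 and 0.63 in controls and by 0.48 and 0.52 in Bmal1 KO. The summed count of 8 endothelial markers, of a cell type known for prostacyclin synthesis, was not lower in Bmal1 KO, with 15358 to 16263 against 16108 to 19753 in females and 15961 to 18572 against 17931 to 20715 in males. The part of these cell types in the Ptgis result was not tested.

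The other terminal enzymes did not pass the test by genotype in males. Tbxas1 (chr6:38875404-39084585, plus strand), the thromboxane synthase, read between 160 and 263 in all 10 female libraries, and differed by 0.25 ± 0.24 between genotypes. In males it differed by -0.03 ± 0.24 (adjusted p = 0.982), with control males 3 and 6, at 85.9 and 112, below every other library. Its highest control female, number 5 at 228, was also the library with the highest summed count of 8 macrophage markers, 32337 against 8499 to 13219 in the other 4 control females, and the part of those cells was not tested.

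The prostaglandin E synthases overlapped between genotypes in both sexes. Ptges (chr2:30889471-30929863, minus strand), the inducible microsomal form, differed by 0.10 ± 0.17 in females and 0.21 ± 0.17 in males (adjusted p = 0.739). Its highest library of all, at 768, was Bmal1 KO male 2, and the other 3 Bmal1 KO males read 396 to 519, inside the control range of 380 to 539. Ptges2 (chr2:32395896-32405772, plus strand), the membrane-associated form with the E-box shown above, differed by -0.01 ± 0.12 in females and -0.07 ± 0.12 in males (adjusted p = 0.917), and ranged from 610 to 1071. Ptges3 (chr10:128058954-128077272, plus strand), the cytosolic form, also known as the HSP90 co-chaperone p23, differed by 0.12 ± 0.06 in females and 0.05 ± 0.07 in males (adjusted p = 0.874).

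Ptgds (chr2:25466709-25470046, minus strand), the lipocalin-type prostaglandin D synthase with the D-box, was the enzyme with the fewest reads, between 10 and 90 recovered reads per library. Its normalised reads were 10.4, 35.0, 18.0, 29.0 and 40.1 in control females, compared with 15.9, 15.4, 20.7, 12.3 and 20.2 in Bmal1 KO females. The control range enclosed the Bmal1 KO range, and the difference was -0.50 ± 0.30, or -0.17 without the females aged 1.5 months. They were 44.5, 83.0, 39.1, 44.6, 64.1 and 58.5 in control males, compared with 36.7, 29.7, 34.8 and 39.9 in Bmal1 KO males. The groups overlapped by 1 library on each side, with a difference of -0.60 ± 0.30 (adjusted p = 0.489). Hpgd (chr8:56294585-56321043, plus strand), the 15-hydroxyprostaglandin dehydrogenase, differed by 0.10 ± 0.16 in females and 0.10 ± 0.16 in males (adjusted p = 0.897). The median difference of the 9 enzymes was 0.10 in females and 0.05 in males, and that of all genes was 0.00 in both.

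**Figure D3:**
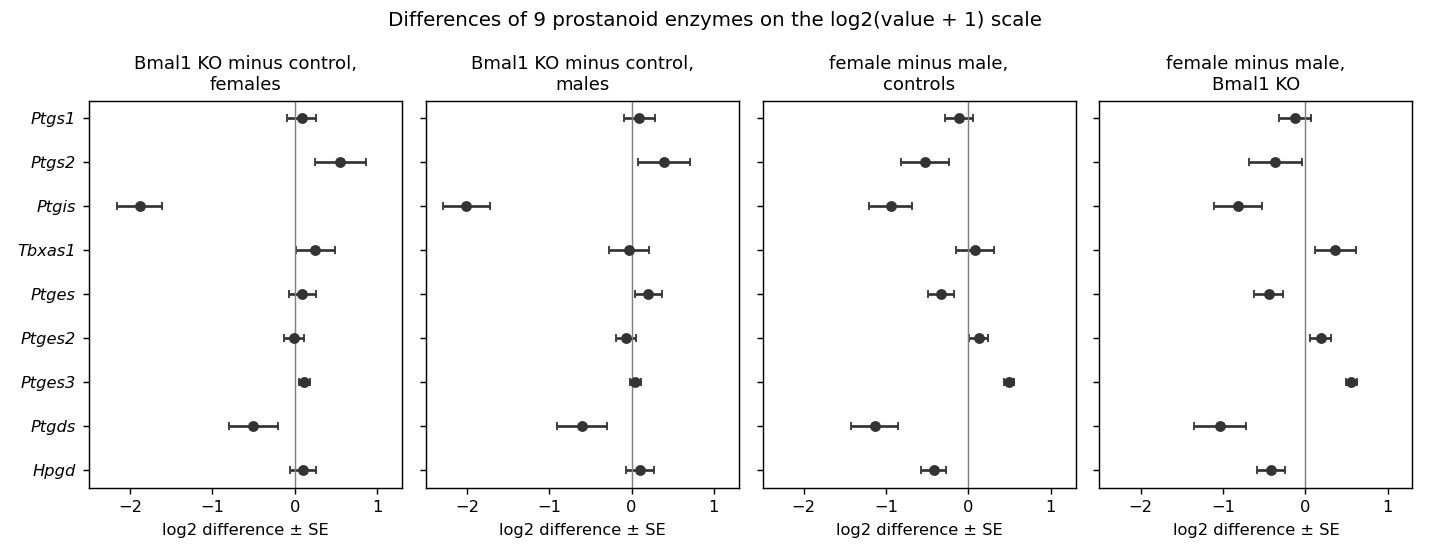
Log2 differences of the 9 enzymes on the log2(value + 1) scale with SE bars, in 4 comparisons; the vertical line marks 0. Ptgis stands near -1.88 and -2.00 in the 2 genotype comparisons, and Ptges3 stands at 0.49 and 0.56 and Ptgds at -1.14 and -1.03 in the 2 sex comparisons.

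By sex, a large share of all genes differed. Sex was not separate from age, since control females were aged 1.5 to 3.4 months and control males 2.9 to 4.7 months. With age as a covariate limma called 3746 genes by sex in controls, against 7023 without it. In controls, 4 of 9 were called, 1 higher and 3 lower in females, against 26.4% of all genes, of which 13.5% were called higher and 12.9% lower. The median difference of the 9 was -0.34, against -0.05 over all genes. In Bmal1 KO, 3 of 9 were called, 1 higher and 2 lower, against 22.8% of all genes, 12.1% higher and 10.6% lower, with a median of -0.36 against -0.07. The 2 sex comparisons share no library, but the 9 enzymes are few, and the share called by sex in all genes was large.

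Ptges3 was higher in females in both genotypes. Among controls, females had 2819, 2753, 2570, 2536 and 2861 normalised reads and males 1883, 1797, 1971, 1893, 1917 and 2124. The lowest female lay above the highest male, and the difference was 0.49 ± 0.06 (SE, adjusted p = 4.91e-06), a ratio of means of 1.40. Without Bmal1, females had 3324, 3142, 2747, 2771 and 2749 and males 1983, 1888, 2043 and 2065, again without overlap, with a difference of 0.56 ± 0.07 (adjusted p = 3.9e-06) and a ratio of 1.48. Ptges3 was the 1 enzyme of 9 higher in females without overlap, against 7.32% of all genes in controls and 11% in Bmal1 KO. The call held under all 32 other fits in both genotypes. Ptges3 has an annotated processed pseudogene, and how the authors' counting treated reads shared with such copies is not given in the sources used here.

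Ptgis, Ptgds and Hpgd were called lower in control females than in control males. Ptgis differed by -0.94 ± 0.26 (adjusted p = 0.0109), with the highest control female, at 3380, inside the male range of 2621 to 5904, and stayed called under all 32 other fits (adjusted p from 0.00167 to 0.0454). The difference was -1.23 without the 2 young females. All control females also belong to the genotype comparison known beforehand, so the p-value for Ptgis is not independent of it. Ptgds differed by -1.14 ± 0.29 (adjusted p = 0.00522), with means of 26.5 ± 12.2 (SD, n = 5) and 55.6 ± 16.4 (n = 6), and overlapped through the highest female, at 40.1, and the lowest male, at 39.1. Of the 9 enzymes, 0 were lower without overlap in control females, against 6.61% of all genes. Hpgd differed by -0.42 ± 0.15 (adjusted p = 0.0476), with means of 185 ± 30.7 and 248 ± 37.2. Females stood at 174, 174, 154, 187 and 236 and males at 223, 193, 240, 266, 297 and 269, so that the highest female lay above 2 males. The Hpgd call was lost under 15 of 32 other fits, most of which left out 1 library (adjusted p up to 0.12), and with age as a covariate the difference was -0.78 (adjusted p = 0.00139).

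In Bmal1 KO animals, Ptgds was lower in females by -1.03 ± 0.32 (adjusted p = 0.0219). Its 5 females, at 12.3 to 20.7, all lay below its 4 males, at 29.7 to 39.9, and it was the 1 enzyme of 9 lower without overlap, against 9.79% of all genes. Without Bmal1 KO female 4 or Bmal1 KO male 4 the call was lost (adjusted p = 0.056 and 0.0603). Ptgis differed by -0.82 ± 0.29 (adjusted p = 0.0473) and lost its call under 18 of 32 other fits. Without Bmal1 KO male 2 the difference was -0.45 (adjusted p = 0.223). These tests use the Bmal1 KO females whose low Ptgis was known beforehand, so nothing is read from their p-values. Hpgd, at -0.42 ± 0.17, was not called (adjusted p = 0.0822), though its difference was the same size as in controls, and with age as a covariate it was -0.56 (adjusted p = 0.0063). Ptges, at -0.45 ± 0.18 (adjusted p = 0.0734), was not called by limma-trend, but was called by edgeR, DESeq2 and limma-voom (0.0455, 0.0421 and 0.0455) and without Bmal1 KO female 2 or Bmal1 KO male 4 (0.0348 and 0.0279). Among the other enzymes Ptgs1 differed by -0.12 ± 0.17 in controls and -0.13 ± 0.19 in Bmal1 KO, Ptgs2 by -0.53 ± 0.29 and -0.36 ± 0.33, and Tbxas1 by 0.08 ± 0.23 and 0.37 ± 0.25. Ptges in controls differed by -0.34 ± 0.16, and Ptges2 by 0.13 ± 0.12 and 0.19 ± 0.13. None of these passed the test (adjusted p from 0.13 to 0.842).

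The steps before and after the 9 enzymes were read from 5 lists with 72 genes, of which 66 were tested. In Bmal1 KO females limma called 1 of 66, where 1.75% of all genes were called, while edgeR called 1 and DESeq2 5. The gene called by limma was Ppard, a nuclear receptor for which prostacyclin has been proposed as a ligand, which rose by 0.42 ± 0.10 (adjusted p = 0.0318), from 574 ± 70.9 (SD, n = 5) to 765 ± 70.7 (n = 5) normalised reads. That call was lost under 10 of 32 other fits. In Bmal1 KO males limma called 2 of 66, against 1.33% of all genes, while edgeR called 1 and DESeq2 3. Fam213b, which encodes a prostamide and prostaglandin F synthase, fell from 580 ± 180 (n = 6) to 312 ± 33.5 (n = 4), by -0.85 ± 0.19 (adjusted p = 0.0245), without overlap, and lost its call under 6 of 32 other fits. Mgll, the monoacylglycerol lipase that can supply arachidonic acid, fell by -0.62 ± 0.15 (adjusted p = 0.0491), was not called by edgeR, and lost its call under 21 of 32 other fits. The median difference of the 66 was 0.01 in females and -0.03 in males.

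Mgll and Fam213b apart, limma called none of the substrate genes and other enzymes by genotype. Among 21 genes of substrate release limma called 0 in females, with 4 at an unadjusted p under 0.05, and edgeR called 0 and DESeq2 1. Pla2g4a, the cytosolic phospholipase that feeds the cyclooxygenases, differed by -0.38 ± 0.33 in females (adjusted p = 0.741) and 0.22 ± 0.34 in males (0.894). Of 16 other synthesis and breakdown enzymes, limma called 0 in females, with 6 at an unadjusted p under 0.05, and edgeR called 0 and DESeq2 2. The share of all genes at that unadjusted threshold is not given here, so nothing is read from these unadjusted counts. Akr1b7 and Akr1b3, aldose reductases that can make prostaglandin F2 alpha and are abundant in the cortex, differed by 0.78 ± 0.26 and -0.24 ± 0.08 in females (adjusted p = 0.175 and 0.173) and by 0.23 ± 0.27 and -0.31 ± 0.08 in males (0.839 and 0.075), where Akr1b3 was lower without overlap. DESeq2 called Akr1b3 in males (0.012), as did limma without control female 2 (0.0272). Of the 16 enzymes in males, limma and edgeR called Fam213b, and DESeq2 called Fam213b and Akr1b3. Hpgds, the haematopoietic prostaglandin D synthase, differed by 0.38 ± 0.24 (0.589) and 0.14 ± 0.24 (0.907).

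Of the 12 receptor genes, which include nuclear receptors, limma and edgeR called Ppard by genotype in females, and DESeq2 called Ppard and Ptger1. Ptgir, the prostacyclin receptor, read 60.3 to 107 in control females and 48.6 to 65.7 in Bmal1 KO females, with a difference of -0.48 ± 0.21 (adjusted p = 0.347). In males it differed by 0.25 ± 0.21 (adjusted p = 0.757). Among the prostaglandin E2 receptors, Ptger1 differed by 0.21 ± 0.07 in females and 0.07 ± 0.07 in males (adjusted p = 0.177 and 0.816, and 0.0457 with DESeq2 in females), and Ptger2 by -0.20 ± 0.38 and 0.18 ± 0.39 (0.916 and 0.932). Ptger3 differed by -0.21 ± 0.22 and -0.09 ± 0.22 (0.803 and 0.943), and Ptger4 by 0.02 ± 0.30 and 0.15 ± 0.30 (1 and 0.929). In males limma, edgeR and DESeq2 called 0 of the 12 receptors, with 1 at an unadjusted p under 0.05. Of 4 transport and 13 lipoxygenase genes, all 3 tools called 0 in either sex, with 1 and 2 at an unadjusted p under 0.05 in females and 0 and 1 in males. Again nothing is read from the unadjusted counts, since the share of all genes is not given.

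**Figure D4:**
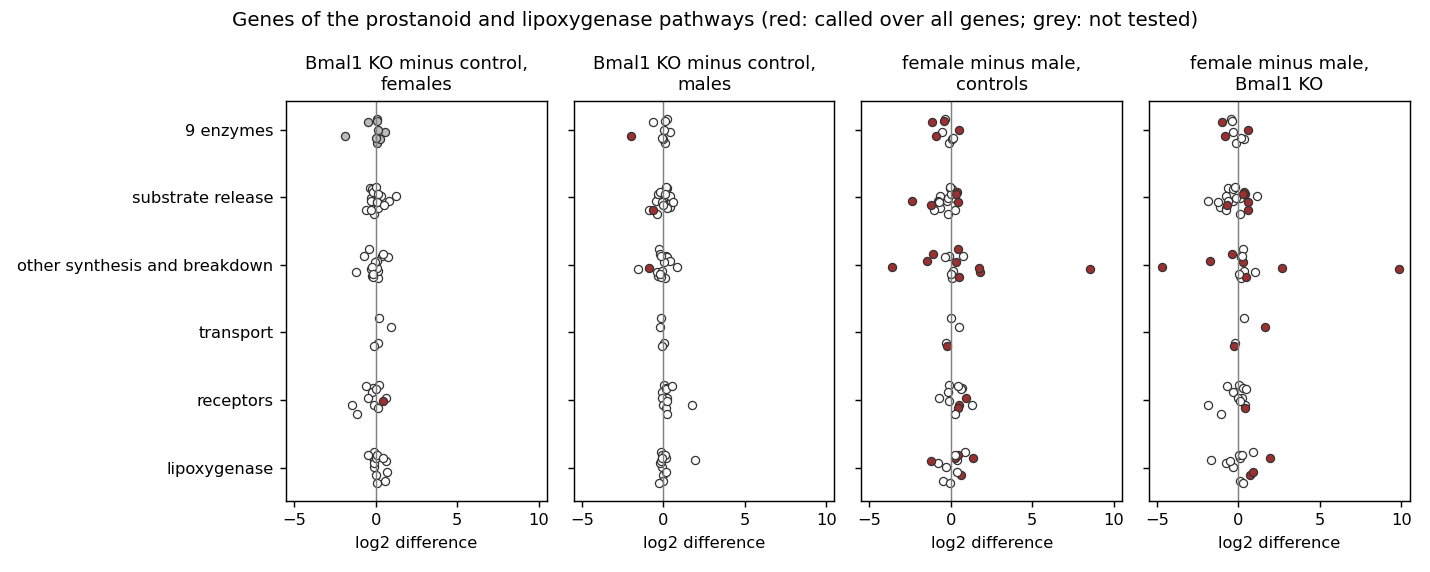
Log2 difference of each tested gene of the prostanoid and lipoxygenase pathways in 4 comparisons, with 1 row per list. Points are spread vertically for legibility. Red points were called at an adjusted p under 0.05 over all genes. Grey points, the 9 enzymes in the female genotype panel, are marked as not tested because their p-values are withheld. Ptgis is the red point of the 9 enzymes in the male genotype panel, and the sex panels hold 24 and 19 red points outside the 9.

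By sex, limma called 24 of the 66 in controls, 16 higher and 8 lower in females, and 19 in Bmal1 KO, 14 higher and 5 lower. Of all genes 26.4% and 22.8% were called in these comparisons. In the same lists edgeR called 25 and 18, and DESeq2 25 and 22. Among other synthesis and breakdown enzymes, 6 of 16 were higher and 3 lower in control females. Akr1c18, an aldo-keto reductase that can make prostaglandin F2 alpha and inactivates progesterone, also marks the X-zone, a layer next to the medulla. Its mean was 62364 ± 36852 (SD, n = 5) for females and 241 ± 242 (n = 6) for males among controls. Fam213b was higher in females by 1.73 ± 0.18 in controls and 2.64 ± 0.20 in Bmal1 KO (adjusted p = 3.51e-07 and 3.63e-09). The prostaglandin reductase Ptgr1 was lower by -1.46 ± 0.15 and -1.77 ± 0.16 (2.8e-07 and 9.06e-08), while Zadh2, another prostaglandin reductase, was higher by 0.48 ± 0.07 and 0.45 ± 0.08 (2.67e-05 and 0.000207). Cyp4f14, a leukotriene B4 hydroxylase, was lower by -1.07 ± 0.13 and -0.40 ± 0.14 (1.74e-06 and 0.0397). Cyp4f15 read 4.09 ± 4.8 in control females and 42.9 ± 16.5 in control males, and 2.13 ± 1.2 and 86.9 ± 58.0 in Bmal1 KO (adjusted p = 9.37e-05 and 2.21e-05), near the floor of 3 reads in females.

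In the substrate list, 3 of 21 were higher and 3 lower in control females, and 5 and 1 in Bmal1 KO. The phospholipases Pla2g4b and Pla2g5 and the amide hydrolase Faah were lower in control females by -2.37 ± 0.66, -0.77 ± 0.24 and -1.21 ± 0.20 (adjusted p = 0.0108, 0.0215 and 0.000116). With age as a covariate Pla2g4b and Pla2g5 were not called (0.0606 and 0.106), and Pla2g5 lost its call under 3 of the other fits in all. In Bmal1 KO, Faah was lower by -0.67 ± 0.22 (0.0331), a call lost under 7 of the other fits, and Pnpla8 and Mgll were higher by 0.56 ± 0.07 and 0.62 ± 0.16 (2.48e-06 and 0.00765). Ptgir was higher in control females by 0.95 ± 0.20 (adjusted p = 0.00113), without overlap, and differed by 0.23 ± 0.22 in Bmal1 KO (0.507). Cbr2, a carbonyl reductase, was higher in control females by 1.79 ± 0.40 (adjusted p = 0.00207) and differed by 0.99 ± 0.44 in Bmal1 KO (0.116), and its call in controls was lost with age as a covariate (0.0788). The difference between the genotypes in these sex effects was -0.73 ± 0.30 for Ptgir and -0.80 ± 0.60 for Cbr2 (adjusted p = 0.694 and 0.922), in a test that called 0.0301% of all genes. By genotype in females, Cbr2 was lower without overlap and was called by DESeq2, but not by limma (adjusted p = 0.186). Of 13 lipoxygenase genes 4 were higher and 1 lower in control females, with Ltb4r1 higher by 1.37 ± 0.48 at 1.81 to 9.27 normalised reads against 0 to 6.92 in males and Aloxe3 lower by -1.24 ± 0.33 (adjusted p = 0.0404 and 0.00811). In Bmal1 KO, 3 were higher and 0 lower, among them Ltc4s by 0.90 ± 0.31, Alox5ap by 0.68 ± 0.20 and Ltb4r1 by 1.92 ± 0.54 (0.0432, 0.0182 and 0.0126). The Ltc4s call was lost under 10 of the other fits (0.0905 with age as a covariate and 0.098 with the replicate number as a block), and the Alox5ap call under 4 (0.0504 with that block). The Ltb4r1 call was lost under 14 in controls, DESeq2 among them (0.0616), and without Bmal1 KO male 3 in Bmal1 KO (0.0647). The transporter gene Slc22a22 was called higher in Bmal1 KO females (adjusted p = 0.0101) at 0.92 to 5.61 normalised reads against 0 in all 4 males, near the floor.

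Mast cell markers moved with sex. The summed count of 5 of them was 207 to 378 in control females against 47.5 to 163 in control males, and 326 to 588 against 69.3 to 149 in Bmal1 KO. Hpgds and Ltc4s, which mast cells are known to express, differed between females and males by -0.09 ± 0.23 and 0.36 ± 0.28 in controls (adjusted p = 0.823 and 0.387) and by 0.15 ± 0.25 and 0.90 ± 0.31 in Bmal1 KO (0.715 and 0.0432). The part of mast cells in the sex differences of the pathway was not tested.

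The genes whose profile was nearest to that of Ptgis over the 20 libraries were Nat8, Gulo, Bhlhe41, Cml3, Gm14291 and Tex14. Likeness was the root mean square difference after each gene's own mean was taken off its log2(value + 1), and was 0.54, 0.56, 0.59, 0.60, 0.61 and 0.66 in that order. It was computed over the libraries that give the genotype and sex comparisons, so the differences of these genes repeat how they were found and are given without a test. Nat8 averaged 50.1 ± 5.1 (SD, n = 5) normalised reads for control females and 15.3 ± 4.8 (n = 5) in Bmal1 KO females, and 126 ± 20.8 (n = 6) and 28.1 ± 1.5 (n = 4) in males. Gulo, the last enzyme of vitamin C synthesis, read 282 ± 58.2 and 83.0 ± 17.5 in females and 457 ± 153 and 145 ± 48.5 in males. Bhlhe41, a repressor of the clock, read 237 ± 66.1 and 76.3 ± 18.6 in females and 329 ± 91.1 and 105 ± 29.9 in males. Cml3 and Nat8 are near copies whose reads may be split between them. In Bmal1 KO male 2, where Ptgis was at 2170, Nat8 was at 26.0 and Gulo at 124, each within the range of the other 3 Bmal1 KO males or below it.

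Gm14291 is annotated as an antisense gene inside Ptgis, at chr2:167201576-167202799 on the plus strand. Its means were 8.16 and 3.39 normalised reads in control and Bmal1 KO females and 18.6 and 6.67 in males. The strand setting of the counting is not given in the sources used here, and without strand, reads from Ptgis and from this gene cannot be told apart. The mean of Ptgis, by comparison, was 2166, 573, 4106 and 1127 in the same order.

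**Figure D5:**
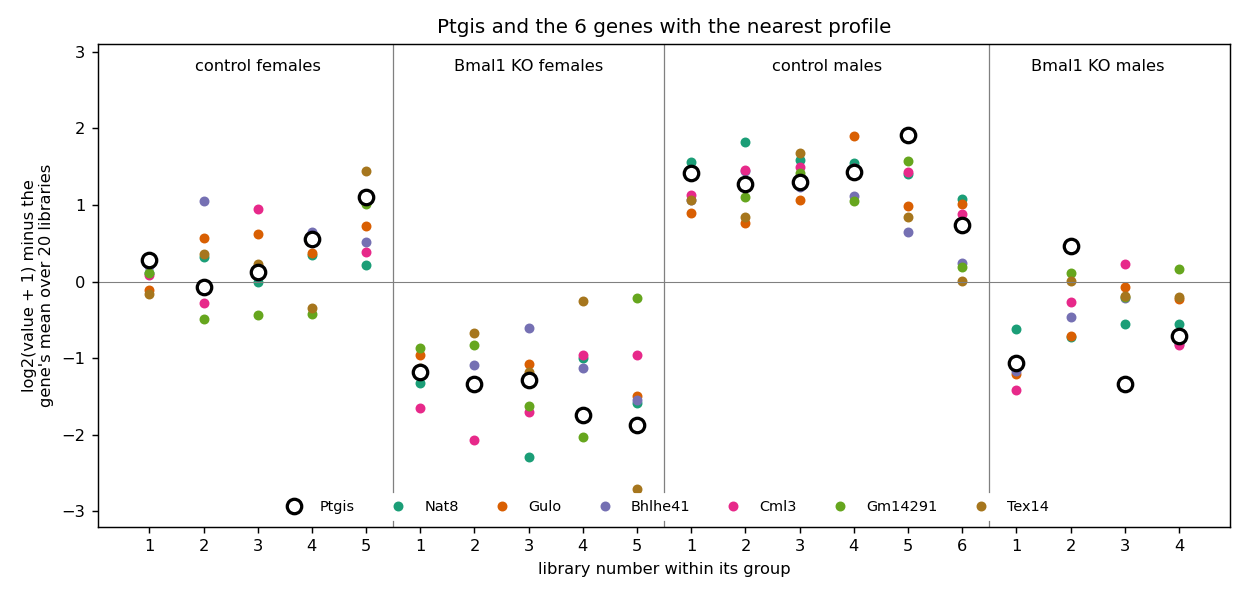
Centred log2(value + 1) of Ptgis (open circles) and of the 6 genes with the nearest profile (filled points) in each library, grouped by genotype and sex. All 7 genes lie mostly above 0 in control males and below 0 in Bmal1 KO females, and in Bmal1 KO male 2 Ptgis, at 2170 normalised reads, lies above the other 6.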

How the data were processed

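RNA from 20 whole adrenal glands was isolated with a Direct-zol miniprep and sequenced from TrueSeq libraries, per the labels' protocols. Per the submitters' processing notes, the tools included Salmon, featureCounts and DESeq2, with FastQC and MultiQC for quality, on mm10 (GRCm38). No tool version, aligner, annotation or strand setting is given in the sources used here. The authors deposited 1 normalised signal value per gene and library for 47729 genes, 13350 of them at 0 throughout. Within each library these deposited values were whole multiples of 1 step (100% within 0.01 of a read), and the step times the size factor that DESeq2 computes was 1. They are thus reads over 1 size factor per library. Because such values are not counts, limma-trend (limma 3.58.1, R 4.3.3) was run on log2(value + 1) for the 26612 genes that reached 1 in 4 or more libraries. The model had 1 mean per group, 1 spread over all 20 libraries and Benjamini-Hochberg adjustment over all genes. This scale understates changes of genes with few reads.

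The 9 enzymes, the pathway and marker lists and the tests were chosen with earlier results of these data known. Genes named beside the 9 are up to 12 called genes of the pathway lists with the largest differences per comparison, a fixed set whatever its values (Pla2g4a, Akr1b3, Akr1b7, Hpgds, Ptgir, Ptger1 to Ptger4), the 6 genes nearest to Ptgis, and Arntl. Clock and marker genes beside these are named as checks. Alternatives were edgeR 4.0.16, DESeq2 1.42.0 and limma-voom on the recovered reads, pseudocounts of 0.1 and 4, no filter or one at 10, TMM scaling, only the groups compared, age as a covariate, females aged 1.5 months left out, the replicate number as a block, and each library left out. The fit was tested on simulated counts. Positions are from GENCODE M21 on GRCm38, in which 47224 identifiers were found, and lengths are those of all annotated exons. A floor of 3 reads per library covers counting error only.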

Additional observations from a re-analysis of the deposited data

Results flagged for a closer look

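In groups of 4 to 6 libraries, 11 of 171 combinations of gene and group had 1 library whose gap to its nearest neighbour on the log2 scale was large against the whole range of the group, and chance gives about 1 in 20. Among the 9 enzymes this was Tbxas1 in control females, where library 5 stood at 228 normalised reads, and that library also had the highest sum of macrophage markers. In control males, the gap was at library 6 for Akr1b7 (142744), Pla2g5 (1066, the lowest), Pnpla8 (2378) and Slc22a22 (1.10, with the other 5 at 0). Library 4 of the control males stood apart for Hpgds (69.3, the lowest), Ptger1 (762) and Gulo (765), and library 2 for Pla2g4a (114, the lowest). In Bmal1 KO females library 5 was at 0 for Cyp4f15, a gene with few reads in females, and in Bmal1 KO males library 1 was the highest for Cyp4f14 (711).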

How the results depend on the processing

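Under the 32 alternatives the count of the 9 enzymes called stayed at 1 by genotype in males and at 3 or 4 by sex in controls. By sex in Bmal1 KO, where 3 were called, it ranged from 1 to 4 when each library was left out, with 1 without Bmal1 KO female 4, and it was 4 with edgeR and DESeq2. Over all genes, 467 were called by genotype in females, against 901 with DESeq2 and 264 without the females aged 1.5 months. In males 354 were called, against 732 with DESeq2 and 219 when only the groups compared were fitted, and 217 to 484 when each library was left out (229 without control male 2 and 217 without Bmal1 KO male 4). By sex in controls 7023 were called, against 3746 with age as a covariate. For the difference between the effects in females and males 8 were called, against 82 with DESeq2, 0 with limma-voom or with age as a covariate, 13 with a pseudocount of 4, and 0 to 16 when each library was left out. The causes of these shifts were not tested.

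Several small differences that were not called changed sign. Tbxas1 by sex in controls was -0.022 with edgeR, -0.015 with DESeq2 and -0.041 with the replicate block. With age as a covariate Hpgd in males was -0.021 and Ptger1 by sex in Bmal1 KO -0.0049. Ptger4 in females was -0.14 with edgeR and -0.13 with DESeq2. When each library was left out, the differences ran from -0.23 to 0.083 for Tbxas1 in males and -0.12 to 0.20 by sex in controls, from -0.18 to 0.024 for Ptges2 in males, from -0.041 to 0.25 for Hpgd in males and from -0.25 to 0.015 for Ptgs1 by sex in Bmal1 KO. Pla2g4a ran from -0.047 to 0.64 in males and -0.25 to 0.074 by sex in controls, Akr1b3 from -0.016 to 0.11 by sex in controls, and Hpgds from -0.011 to 0.22 in males and -0.26 to 0.13 by sex in controls. Ptger1 by sex in Bmal1 KO ran from -0.015 to 0.050, Ptger2 from -0.38 to 0.087 in females and -0.015 to 0.39 in males, Ptger3 from -0.23 to 0.063 in males, and Ptger4 from -0.14 to 0.32 in females and -0.046 to 0.28 in males. Among the differences given without a test, the range over all alternatives crossed 0 in females for Ptgs1 (-0.041 to 0.23) and Ptges2 (-0.096 to 0.051). For the difference between the effects in females and males it crossed 0 for Ptgs1 (-0.14 to 0.13), Ptgs2 (-0.062 to 0.38), Ptgis (-0.10 to 0.50), Ptges (-0.25 to 0.071), Ptges2 (-0.031 to 0.17), Ptgds (-0.18 to 0.43) and Hpgd (-0.15 to 0.22).

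The groups share replicate numbers in the labels, and the deviations of same-numbered libraries correlated by -0.07 to 0.14. For some pairs of groups and numbers, the same number was the closest match. In females the numbers also went with age: number 1 was the oldest of each group, at 3.4 months, and numbers 4 and 5 the youngest. Whether a number marks a batch is not given in the labels, and these correlations cannot decide it. With the replicate block 442 genes were called by genotype in females, 350 in males, 6850 by sex in controls, 5686 by sex in Bmal1 KO and 9 for the difference between effects. In the block fit Hpgd was also called by sex in Bmal1 KO (adjusted p = 0.0147). Depth limits Ptgds, at 10 to 90 reads per library, more than the other enzymes.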
